A study of Homo sapiens with 6 samples.

Results

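Neuroendocrine differentiation markers were followed in the castration-resistant prostate cancer (PCa) cell line C4-2 under supraphysiological androgen level (SAL). The markers were the 9 genes CHGA, CHGB, SYP, ENO2, INSM1, SCG2, SCG3, NCAM1 and NTS, chosen by name among the 55765 gene symbols of the count tables. Read counts per gene were compared between 3 libraries of cells given the solvent DMSO and 3 libraries of cells given 1 nM of the synthetic androgen R1881 for 72 h (SAL), both in DMEM medium with serum. C4-2 is a subline of the androgen-sensitive line LNCaP and both groups are of this line, so the libraries stand for 1 cell line. The libraries were numbered 1 to 3 in each group, came from experiments described as independent, and were compared within numbers. After removal of rRNA genes they held 6931042 to 9776990 counts on genes, so that 1 count stood for 0.11 to 0.14 CPM (counts per 1000000, relative to the scaled library size).

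Neuroendocrine cells are rare hormone-secreting cells of the prostate epithelium. They store peptides and granin proteins in dense-core granules, release them on a stimulus, and lack the luminal secretory programme that androgens drive. Androgen withdrawal is known to move LNCaP-type cells toward this phenotype, and the same marker genes define the neuroendocrine PCa that can emerge under therapy. CHGA, CHGB, SCG2 and SCG3 encode granins, SYP encodes synaptophysin of the vesicle membrane, NCAM1 the adhesion protein CD56, and ENO2 the neuronal form of the glycolytic enzyme enolase. INSM1 encodes a zinc-finger transcription factor of neuroendocrine cells and NTS the peptide neurotensin.

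Promoter windows of RefSeq (GRCh38.p14, 250 bases before to 50 after the transcription start) were matched by symbol for 5 markers, CHGA, ENO2, NTS, SCG3 and SYP. They were searched on both strands for the cAMP response element (CRE, TGACGTCA), the core TGACG that lies inside it and the E-box CANNTG. An AP-1-like pattern, TGANTCA with any base at N, was searched as well. So were the androgen response element and its single arm AGAACA, and the left and right arms TTCAGCACC and GGACAG of RE1. RE1 is the element bound by the neuronal gene repressor REST. Of 35116 promoter windows, 1.85% held the CRE, and among the markers CHGA did, 54 to 47 bases before the start. The AP-1-like pattern was in 7.71% of all windows, whichever base stood at N. It matched in ENO2 as TGACTCA at 94 to 88 bases before the start. In SYP it matched as TGAATCA at 36 to 42 bases after the start. The left RE1 arm was in 0.376% of all windows and in SCG3, where it lies 9 to 17 bases after the start and is followed by the right arm at 26 to 31. The right arm was in 20.5% of all windows and the CRE core in 24.6%, the latter also in NTS and SCG3. The E-box, in 68.7% of all windows, was in CHGA, ENO2, NTS and SCG3. Neither the androgen response element, in 0.00285% of all windows, nor its single arm, in 14.8%, was in these 5 windows. Stretches around the CRE, the AP-1-like match of ENO2 and the left RE1 arm are shown, with the matched letters in capitals. These motifs were the least frequent of those matched. A match of letters is a description and was not tested for function. They lie on the plus strand at chr14:92923056-92923135 (CHGA), chr12:6914446-6914532 (ENO2) and chr15:51681511-51681538 (SCG3).
CHGA: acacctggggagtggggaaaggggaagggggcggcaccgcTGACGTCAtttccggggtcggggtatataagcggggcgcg
ENO2: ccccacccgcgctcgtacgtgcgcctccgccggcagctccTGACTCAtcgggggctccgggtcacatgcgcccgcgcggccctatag
SCG3: TTCAGCACCcacagggcGGACAGcgctc

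Marker transcripts were few in every library. Over the 9 markers together, the counts of replicates 1, 2 and 3 were 50, 102 and 67 under DMSO and 42, 76 and 47 under SAL. Scaled, this was 6.20, 13.9 and 8.95 CPM in DMSO and 5.38, 8.33 and 5.79 CPM in SAL. The sum was lower in SAL in each numbered pair, although the groups overlapped. Of single genes tested, 51.2% kept 1 direction in all 3 pairs. ENO2 gave the largest part of the sum, 100 counts in DMSO and 72 in SAL, and SYP went the other way, with 31 and 51. By contrast with the low marker counts, 6 genes of luminal identity and androgen response summed to 9022 to 69443 counts per library. These were KLK3, KLK2, TMPRSS2, FKBP5, KRT8 and KRT18. Of 14 markers of basal epithelium, fibroblasts, leukocytes and endothelium that were measured, KRT5, COL1A2, PTPRC, CD3E and CDH5 had no counts. The 14 together had 27 to 131 counts per library, mostly from COL1A1 (14 to 88) and VWF (4 to 35). In bulk libraries, fewer cells that carry a marker and less of its RNA per cell cannot be told apart.

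**Figure D1:**
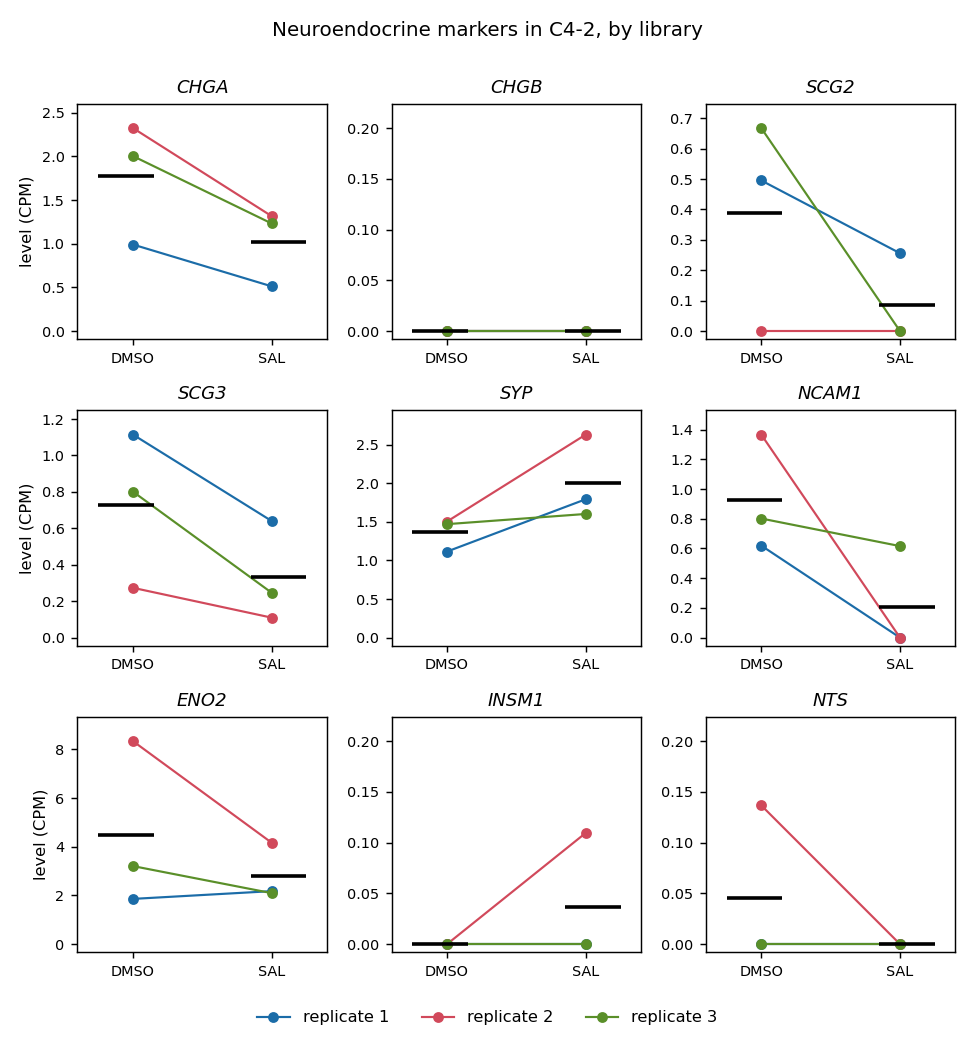
Level of each marker (CPM, linear axis from 0, own scale per panel) in DMSO and SAL, with a line joining the libraries of the same replicate number and black bars for the group means over 3 libraries. CHGA is lower and SYP higher in SAL along all 3 lines, CHGB has no counts, and INSM1 and NTS have 1 count each.

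Per kilobase of exon, the scale on which genes can be compared, the order was led by ENO2. Its mean over the 6 libraries was 0.850 CPM per kilobase (0.434 to 1.95). CHGA followed at 0.462 (0.169 to 0.769), SYP at 0.242 (0.160 to 0.377) and SCG3 at 0.168 (0.0346 to 0.352). SCG2 at 0.0918 (0 to 0.259) and NCAM1 at 0.0447 (0 to 0.108) were lower, and NTS, INSM1 and CHGB were at or near 0. Neighbours in this order had overlapping ranges. The order rests on merged exon lengths of GENCODE v44, such as 3024 bases for CHGA and 6977 for SYP, not on the v19 exons counted. In CPM, SYP was below CHGA in DMSO (means 1.36 and 1.77) and above it in SAL (2.01 and 1.02). Related genes outside the marker set were more abundant in each library compared. ENO1, the enolase of most tissues, exceeded ENO2 per kilobase by 124-fold to 244-fold across the libraries, and the muscle enolase ENO3 by 1.91-fold to 5.46-fold, with ranges that overlapped across libraries. SYPL1, the relative of synaptophysin found in most cell types, exceeded SYP by 97.3-fold to 451-fold. NCAM2, a paralog of NCAM1, exceeded it by 364-fold to 1133-fold in the 4 libraries in which NCAM1 had counts. The NCAM1 exons are partly shared with NCAM1-AS1 (613 bases), ENSG00000247416 (202) and TTC12-DT (187), all on the other strand. The SYP exons share 68 bases with SYP-AS1, also on the other strand. Counting without strand does not separate such genes, and the effect on the counts was not examined.

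**Figure D2:**
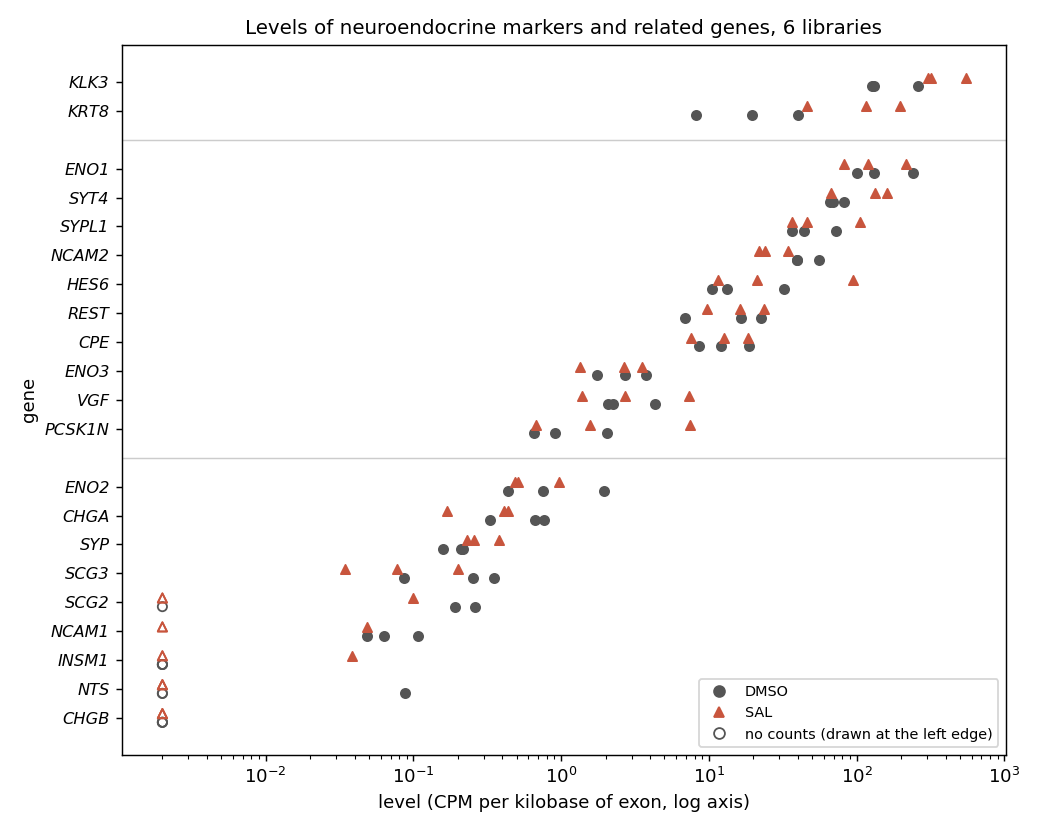
Level per kilobase of exon (log axis) of the 9 markers (bottom block), related genes (middle) and luminal genes (top), with circles for the 3 DMSO libraries, triangles for the 3 SAL libraries and open symbols for libraries without counts. The 9 markers lie at or under 1.95 CPM per kilobase, whereas ENO1 lies at 82.0 to 241.

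No marker was called a differentially expressed gene (DEG) between SAL and DMSO. Of the 9, 3 had enough counts to be tested, ENO2, SYP and CHGA, and 0 of these passed an adjusted p of 0.05 (edgeR's quasi-likelihood test with the replicate number as a block, Benjamini-Hochberg adjustment over 16835 genes). DEGs made up 20.8% of all genes tested, with 11.5% higher and 9.37% lower in SAL. None of the 3 had an unadjusted p under 0.05, as 32.4% of all genes did. DESeq2 with the same block also called 0 of the 3, and 13.3% of all genes (7.66% higher, 5.64% lower). Without the block, 0 of the 3 and 0.125% of all genes were called (0.107% higher, 0.0178% lower). The 95% confidence intervals of CHGA and ENO2 extended beyond a log2 difference of -1 and that of SYP beyond 1, so differences of that size were within the error at this depth.

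CHGA encodes chromogranin A, the serum marker of neuroendocrine tumours (GRCh37 chromosome 14, 93389495 to 93401630). Its counts in replicates 1, 2 and 3 were 8, 17 and 15 under DMSO and 4, 12 and 10 under SAL. These gave 1.77 ± 0.70 CPM for DMSO and 1.02 ± 0.44 CPM for SAL (SD, n = 3). SAL was lower in all 3 pairs, by similar log2 differences of -0.70, -0.72 and -0.61, but the groups overlapped, with DMSO replicate 1 under SAL replicates 2 and 3. Of all genes tested, 51.2% kept 1 direction in all 3 pairs. The log2 fold change of SAL over DMSO (log2FC) was -0.79 (standard error, SE, 0.42, 95% confidence interval -1.68 to 0.09, adjusted p = 0.207), and the exact two-sided permutation test of 3 against 3 libraries gave p = 0.3, where 0.1 is the smallest value possible.

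The other granin markers had at most 9 counts in any library. CHGB (chromosome 20, 5892156 to 5905999) had 0 of 48331960 counts over the 6 libraries, which allows up to 0.0626 CPM at a limit of 3 counts. SCG3 (secretogranin III, which helps to sort granins into granules; chromosome 15, 51973689 to 52013223) had 9, 2 and 6 counts in DMSO and 5, 1 and 2 in SAL. It was lower in SAL in each pair, and both libraries of replicate 2 were the lowest of their group. Over the group sums, 17 in DMSO and 8 in SAL, the ratio was 0.430 (exact 95% interval 0.161 to 1.05, for counting error only). SCG2 (secretogranin II, the precursor of secretoneurin; chromosome 2, 224461658 to 224467079) had 4, 0 and 5 counts in DMSO and 2, 0 and 0 in SAL. The ratio of its sums, 2 to 9, was 0.203 (0.0213 to 0.980), and SCG2 had no count in either library of replicate 2 or in SAL replicate 3. Fitted without the low-count filter, SCG3 had a log2FC of -1.13 (adjusted p = 0.590) and SCG2 of -2.04 (adjusted p = 0.613). Neither difference was past the spread left after the replicate block in that fit.

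SYP (synaptophysin; chromosome X, 49044268 to 49056677) was the tested marker with more RNA in SAL. It had 9, 11 and 11 counts in DMSO and 14, 24 and 13 in SAL, or 1.36 ± 0.22 and 2.01 ± 0.55 CPM (SD, n = 3). Each SAL library was above each DMSO library on this scale (exact permutation test, p = 0.1), as was so for 3.78% of all genes tested, where 7.51% did not overlap in either direction. With the size factors of DESeq2 or plain library totals the groups overlapped. The pairs differed by 0.58, 0.72 and 0.11 on the log2 scale, and the log2FC was 0.55 (SE 0.38, 95% confidence interval -0.27 to 1.37, adjusted p = 0.358).

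ENO2 (chromosome 12, 7022909 to 7032861) was the marker with the highest mean level. It had 15, 61 and 24 counts in DMSO and 17, 38 and 17 in SAL, which gave 4.47 ± 3.42 and 2.81 ± 1.17 CPM (SD, n = 3). Replicate 2 was the highest in both groups, and the groups overlapped. The pairs of replicates 2 and 3 differed by -0.96 and -0.56 on the log2 scale, while that of replicate 1 differed by 0.20. The log2FC was -0.59 (SE 0.30, 95% confidence interval -1.23 to 0.06, adjusted p = 0.195; exact permutation test, p = 0.7). Without replicate 1 it was -0.86 and past the threshold (adjusted p = 0.0385). That fit called 4398 of 16735 genes, against 3508 of 16835 with all replicates. Without replicate 2 the log2FC of ENO2 was -0.24 (adjusted p = 0.746), in a fit that called 2939 of 17267 genes. The call of ENO2 thus rests on which replicate number is left out. ENO1 had a log2FC of -0.19 (adjusted p = 0.160) and ENO3 of -0.14 (adjusted p = 0.628), and neither was a DEG.

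NCAM1 (chromosome 11, 112831997 to 113149158) had 26 counts in all, too few to pass the low-count filter. It had 5, 10 and 6 counts in DMSO and 0, 0 and 5 in SAL. All SAL libraries were below all DMSO libraries (exact permutation test, p = 0.1). This pattern was found in 3.73% of the genes tested, a set that does not include NCAM1. Its share among genes with so few counts was not computed. SAL replicate 3 was separated from DMSO replicate 1 only by 0.616 against 0.620 CPM, at 5 counts each. The ratio of the sums, 5 to 21, was 0.217 (exact 95% interval 0.0641 to 0.592, for counting error only). Without the low-count filter, where 11.5% of 34388 genes were DEGs (6.68% higher and 4.84% lower in SAL), NCAM1 had a log2FC of -2.24 (SE 0.86, adjusted p = 0.0692). In the same fit the adjusted p was 0.244 without replicate 1 (log2FC -1.88), 0.678 without replicate 2 (-1.29) and 0.0239 without replicate 3, where SAL had no NCAM1 counts left. INSM1 (chromosome 20, 20348748 to 20351593) had 1 count, in SAL replicate 2, and NTS (chromosome 12, 86268073 to 86276770) had 1 count, in DMSO replicate 2.

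Most of the variation of ENO2 and CHGA, but not of SYP, lay between replicate numbers. Of the sum of squares in the log2 CPM of ENO2, 78.2% lay between replicate numbers and 9.87% between treatments, against medians of 85.4% and 5.88% over all genes tested. For CHGA these shares were 65.3% and 34.5%, and for SYP 32% and 51.8%. There were more replicate numbers than treatments, and the shares were not adjusted for this. CHGA and ENO2 were highest in replicate 2 of both groups, while SCG3 was lowest there in both. The genes with the most similar pattern over the 6 libraries were KAT7 (Pearson's r 0.996) and DDX11L2 (0.991) for ENO2, ACACB (0.998) and a clone-named gene, RP11-307C12.11 (0.999), for CHGA, and ST3GAL5 (0.971) and RP3-475N16.1 (0.980) for SYP. These correlations are descriptions over 6 libraries that share replicate numbers, taken as the highest of all genes tested, and DDX11L2 belongs to a family of near-identical copies that share reads.

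The wider programme around the markers was described with 9 lists of 89 genes. Of these, 45 were tested, of which 8 were higher and 3 lower in SAL as DEGs, and 18 had no counts in any library. These 11 DEGs of 45 stand beside 20.8% of all genes tested, 11.5% higher and 9.37% lower, a share close to theirs. The median log2FC of the 45 was 0.07, against -0.0011 over all genes. Among the lists, 6 of 15 tested genes of exocytosis, the release of vesicles at the cell membrane, and 0 of 5 tested lineage regulators were DEGs, and the difference between lists was not tested.

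**Figure D3:**
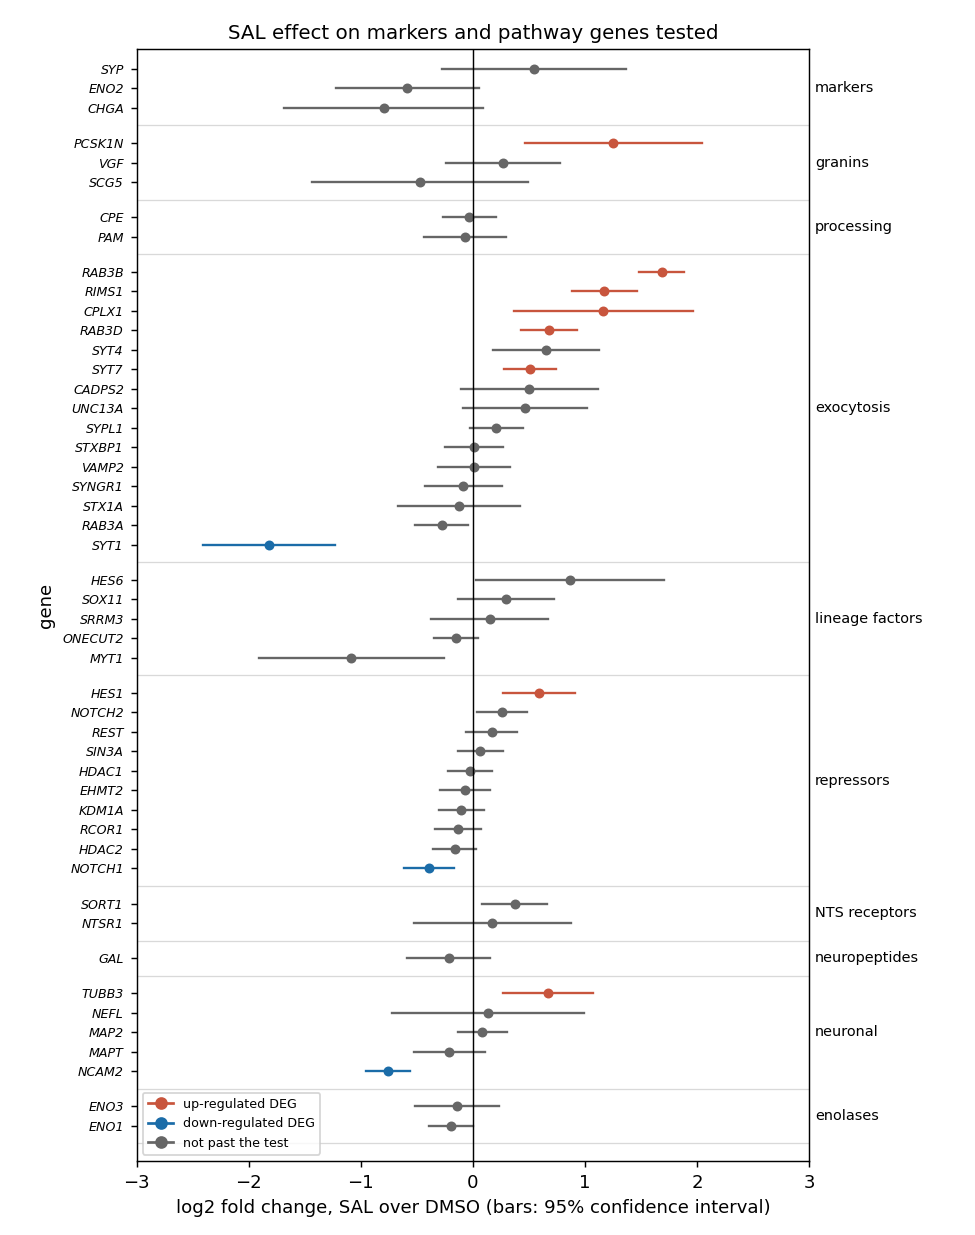
Log2 fold change of SAL over DMSO with its 95% confidence interval for the 3 markers and 45 pathway genes tested (edgeR with the replicate block), red for up-regulated and blue for down-regulated DEGs and grey for genes not past the test. The intervals of CHGA, SYP and ENO2 include 0 and are wider than those of abundant genes such as RAB3B or NCAM2.

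Among other granin family genes, PCSK1N, which encodes proSAAS, an inhibitor of the prohormone convertase PCSK1, was an up-regulated DEG. It had 7, 20 and 9 counts in DMSO and 7, 91 and 17 in SAL, a log2FC of 1.25 (SE 0.37, adjusted p = 0.0253). The groups overlapped and SAL replicate 2 stood out, and the call was lost without replicate 2 (0.48, adjusted p = 0.596), without replicate 3 (adjusted p = 0.0988) and under DESeq2 (adjusted p = 0.236). VGF differed by 0.27 (adjusted p = 0.476) and SCG5, the chaperone of PCSK2, by -0.47 (adjusted p = 0.514). Of 5 genes that process prohormones, PCSK2 and QPCT had no counts, PCSK1 had too few to be tested, and CPE (carboxypeptidase E, 185 to 527 counts) and PAM, which amidates peptides, had log2FCs of -0.03 (adjusted p = 0.873) and -0.07 (adjusted p = 0.819).

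Of 23 genes of vesicle exocytosis, 15 were tested, with 5 DEGs higher and 1 lower in SAL, against 11.5% and 9.37% of all genes tested, and a median log2FC of 0.46. RAB3B, a small GTPase of secretory vesicles, rose from 143 ± 81.3 to 461 ± 263 CPM (SD, n = 3), with 49.7, 199 and 181 CPM in DMSO and 157, 611 and 615 in SAL. Its log2 differences within pairs were 1.66, 1.62 and 1.77, and the log2FC was 1.69 (SE 0.09, adjusted p = 5.46e-09). Both libraries of replicate 1 were the lowest of their group, and the groups overlapped. RAB3D, of the same family, rose by 0.68 (adjusted p = 0.000739), and RIMS1, a scaffold of the release site, by 1.17 (adjusted p = 1.97e-05). SYT7, a slow calcium sensor of exocytosis, rose by 0.51 (adjusted p = 0.00316), and CPLX1, which clamps the fusion machinery, by 1.16 (adjusted p = 0.0439). The call of CPLX1 was lost when replicate 2 (adjusted p = 0.137) or replicate 3 (adjusted p = 0.0529) was left out.

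In the opposite direction, SYT1, the fast calcium sensor of synaptic vesicles, fell from 53, 66 and 73 counts in DMSO to 24, 15 and 20 in SAL. No SAL library reached the lowest DMSO library, as in 3.73% of all genes tested, and the log2FC was -1.82 (SE 0.28, adjusted p = 0.000204). The synaptotagmin SYT4, with 2068 to 5427 counts, had a log2FC of 0.65 that was not past the threshold (adjusted p = 0.0650), with pair differences of 0.96, 0.04 and 0.94. RAB3A, the neuronal member of the RAB3 family, differed by -0.28 (adjusted p = 0.0940). SNAP25, a membrane fusion protein of neurons and endocrine cells, had 3 counts in all, each in SAL replicate 2.

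**Figure D4:**
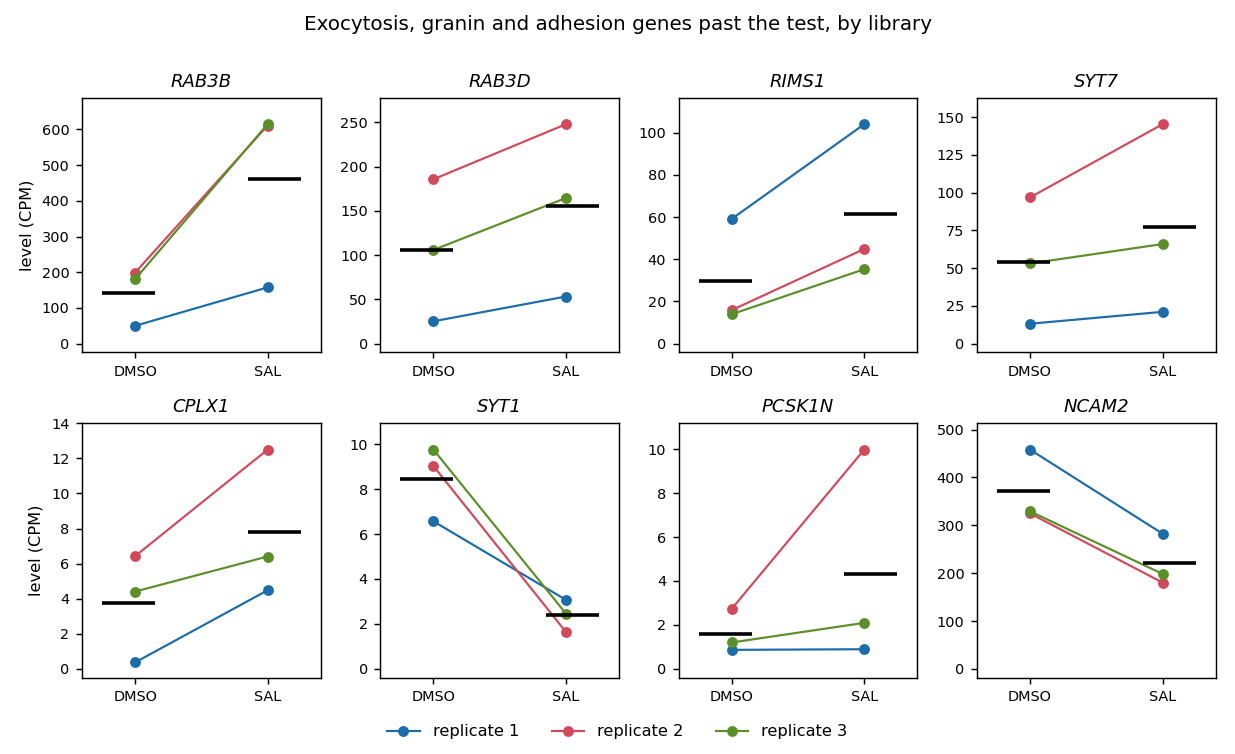
Levels (CPM, linear axis from 0) of 8 exocytosis, granin and adhesion genes that were DEGs, with lines joining the libraries of the same replicate number and black bars for the group means over 3 libraries. RAB3B, RAB3D, RIMS1, SYT7 and CPLX1 rise along all 3 lines, SYT1 and NCAM2 fall along all 3, and the rise of PCSK1N lies mostly in replicate 2.

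Of 16 lineage regulators, 5 were tested and 0 were DEGs by edgeR with the block, although 2, HES6 and MYT1, had an unadjusted p under 0.05 (0.0460 and 0.0141). The count of lineage DEGs was 1 of 5 under DESeq2 (13.3% of all genes), 3 of 11 without the low-count filter (11.5% of all genes), 3 of 6 without replicate 1 (4398 of 16735 genes in all) and 1 of 5 without replicate 2 (2939 of 17267). NEUROD1, FOXA2 and MYCN had no counts. ONECUT2, with 487 to 1401 counts, differed by -0.15 (adjusted p = 0.292). HES6, a Notch pathway factor of neuronal differentiation, had 166, 464 and 194 counts in DMSO and 176, 1673 and 334 in SAL, a log2FC of 0.87 (adjusted p = 0.146). The zinc-finger factor MYT1 differed by -1.08 (adjusted p = 0.0622). POU3F2, the neural factor BRN2, did not pass the filter, with 5, 11 and 11 counts in DMSO and 2, 2 and 1 in SAL. Its SAL libraries were all below its DMSO libraries (exact permutation test, p = 0.1), as in 3.73% of the genes tested, a set without POU3F2. Without the filter its log2FC was -2.46 (SE 0.77, adjusted p = 0.0152). This call was lost without replicate 2 (adjusted p = 0.146) and without replicate 3 (adjusted p = 0.351), when the log2FCs were -2.32 and -2.06.

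The repressors of neuronal genes were well expressed. REST had 525 to 1800 counts, or 144 ± 74.8 CPM under DMSO and 156 ± 65.4 CPM under SAL (SD, n = 3), and a log2FC of 0.17 (95% confidence interval -0.06 to 0.40, adjusted p = 0.309). Its corepressors and chromatin partners RCOR1, SIN3A, KDM1A, HDAC1, HDAC2 and EHMT2 had log2FCs from -0.16 to 0.07 and none was a DEG. In the Notch pathway, the target HES1, which represses proneural genes, rose by 0.59 (adjusted p = 0.0102), the receptor NOTCH1 fell by 0.39 (adjusted p = 0.0143) and NOTCH2 differed by 0.26 (adjusted p = 0.101). Both calls were lost under DESeq2 (adjusted p = 0.0512 and 0.0724), that of HES1 also without replicate 2 (adjusted p = 0.0784) and that of NOTCH1 without replicate 3 (adjusted p = 0.199).

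Receptors of neurotensin were measured although NTS itself had 1 count. NTSR1, the high-affinity receptor, had 7, 25 and 19 counts in DMSO and 10, 34 and 21 in SAL, a log2FC of 0.17 (adjusted p = 0.765). The sorting receptor SORT1 differed by 0.37, just outside the threshold (adjusted p = 0.0652), and passed it without the filter on low counts (adjusted p = 0.0149) and without replicate 2 (0.50, adjusted p = 0.0484), while without replicate 1 it differed by 0.21 (adjusted p = 0.199). Of 12 other neuropeptide genes, 7 had no counts, NPY and GRP among them, and GAL (galanin), with 99 to 489 counts, was tested and differed by -0.22 (adjusted p = 0.431).

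Among 15 neuronal structure and adhesion genes, 5 were tested. NCAM2 fell from 371 ± 75.8 to 221 ± 54.5 CPM (SD, n = 3), with 3698, 2375 and 2464 counts in DMSO and 2207, 1646 and 1612 in SAL. All SAL libraries were below all DMSO libraries, as in 3.73% of all genes tested, and the log2FC was -0.76 (SE 0.09, adjusted p = 2.09e-05). TUBB3, the neuronal beta-tubulin, rose by 0.67 (adjusted p = 0.0183), a call that was lost under DESeq2 (adjusted p = 0.114), without replicate 2 (adjusted p = 0.0768) and without replicate 3 (adjusted p = 0.273). MAP2, MAPT and NEFL had log2FCs of 0.08, -0.21 and 0.13 and none was a DEG. UCHL1, a ubiquitin hydrolase of neurons, was below the filter, with 2, 0 and 0 counts in DMSO and 5, 2 and 6 in SAL.

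Of the 6 luminal and androgen-responsive genes in the same libraries, 6 were DEGs higher in SAL, against 11.5% of all genes tested. Without the replicate block, 1 of the 6 and 0.107% of all genes were called higher. KLK3, which encodes prostate-specific antigen, rose from 799.9 ± 347 CPM under DMSO to 1809 ± 630 under SAL (SD, n = 3; log2FC 1.21, adjusted p = 3.33e-07).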

How the data were processed

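Total RNA of C4-2 cells was sequenced by the authors with a stranded kit. They trimmed the reads, mapped read 1 to hg19 with TopHat2 2.1.0 and counted exon reads per gene symbol with HTSeq 0.11.2 and GENCODE v19 without regard to strand. The deposited values are raw counts. Reads assigned to no feature, 24.0 to 48.3% of each library's total, were left out. Here 523 rRNA symbols (11.9 to 27.8% of gene counts) were removed, as in the study, low genes were removed with filterByExpr, and the 16835 remaining genes were scaled with TMM and fitted with edgeR 4.0.16 (R 4.3.3, quasi-likelihood test, replicate number as block). Same-numbered libraries deviated together from their group means (r = 0.89, 0.86 and 0.74, at most 0.04 between other numbers), and the study used a paired test. Differences within pairs are on log2 CPM with a prior count of 2. Exon lengths and positions come from GRCh37 with GENCODE v44 lifted to it. Alternatives included DESeq2 1.42.0. Counting intervals (95%) and the limit of 3 counts cover counting error only.

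The markers and lists were chosen with earlier results of these data known. All markers, up to 3 DEGs per list and direction, and REST, NEUROD1, NTSR1, SORT1, ENO1 and KLK3 were named by rule, and other genes, such as SYT7, CPLX1, SYT4, HES6, MYT1, POU3F2 and UCHL1, after their values were seen. The p-values of fits with the block measure the spread left after replicate number is taken out, moderated across genes. The permutation test ignores replicate number. All rest on libraries of 1 cell line. PECAM1 was not analysed here, and some genes of the lists are not reported here.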

Additional observations from a re-analysis of the deposited data

How the results depend on the processing

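The count of DEGs, 3508 with the replicate block, was 2240 with DESeq2 and the block, 21 with no replicate block, and from 1233 (without replicate 3) to 4398 (without replicate 1) when a replicate number was left out. The count of called markers was 0 to 1 when replicate numbers were left out, the 1 being ENO2, whose log2 fold change ranged from -0.86 to -0.24, and 0 under the other alternatives. CHGA, SYP and ENO2 kept their direction under every alternative in which they could be fitted. Most of these alternatives refitted the same 6 libraries, so a change of direction was unlikely. CHGA was not fitted without replicate 2. Of the pathway genes, 11 were DEGs with the block, 0 without the block, and 7 to 17 with a replicate number left out. With no replicate block KLK3 was also not called (adjusted p = 1), and 85.7% of the 21 calls were higher in SAL, against 55% of those with the block. Without the low-count filter the adjusted p of KLK3 was 4.19e-40, against 3.33e-07 with it, and that of CHGA 0.41, against 0.207. Adjusted p-values from the fit without the filter are therefore not on the scale of the main fit. Fits of NCAM1, SCG2, SCG3 and POU3F2 that combined no filter with other settings were chosen after seeing the data. With 3 libraries a group and at most 61 counts per library of any marker, depth limits every statement on them.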
